A study of Homo sapiens with 8 samples.

Results

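The baseline distribution of a promoter mark and a heterochromatin mark was mapped in SUM159 cells that carried dCas9-KRAB and no targeting guide RNA. The libraries were those whose deposited peak list is named for the empty vector, which gave 4 of the 8 samples in the series, 2 for trimethylated lysine 9 of histone H3 (H3K9me3) and 2 for trimethylated lysine 4 (H3K4me3). SUM159 is an established human triple-negative breast cancer line of the mesenchymal, claudin-low kind. All cells in the series, controls included, were transduced with a single lentiviral vector that expresses dCas9-KRAB and were selected with puromycin. dCas9-KRAB is a Cas9 protein without nuclease activity joined to the KRAB repressor domain. The empty vector samples (No gRNA) lack a targeting guide, whereas the All gRNA samples also received 4 guides against the ZEB1 promoter. Every control here therefore carried the repressor fusion itself, and cells without it were not analysed here. Native chromatin was digested with micrococcal nuclease and precipitated with one antibody per mark.

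One of the 4 samples has conflicting records. Both H3K9me3 samples were labelled No gRNA (replicate 1 and replicate 2), as was one of the H3K4me3 samples (No gRNA replicate 2). The other H3K4me3 sample was named for the empty vector in its file but labelled All gRNA replicate 2, and it is called the library labelled All gRNA replicate 2 throughout. A second H3K4me3 sample shows the reverse conflict, since it was labelled No gRNA replicate 1 but named for the guides in its file, and it lies outside the map. The main counts are also given without the library labelled All gRNA replicate 2, and with the pair of H3K4me3 samples labelled No gRNA. That pair holds the second conflicting sample, so neither choice of samples is free of doubt. Profiles and single runs are given for the 4 libraries as chosen.

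H3K4me3 is deposited by the SET1 and MLL (KMT2) complexes around the start sites of active or poised genes, and CpG-rich promoters are its usual location. H3K9me3 is written by SETDB1 and the SUV39H enzymes and is bound by the HP1 proteins (CBX1, CBX3 and CBX5), and it marks compact chromatin at repeats and at repressed gene families. Clusters of KRAB zinc finger genes, most of them on chromosome 19, are a well known site of H3K9me3 across their gene bodies. KRAB zinc finger proteins themselves bring the corepressor TRIM28 (KAP1) and SETDB1 to DNA.

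A promoter was the start site of a protein-coding gene in GENCODE ± 1 kb, and it was said to carry a mark in a library when peaks at q ≤ 0.05 covered at least 50% of its bases. A promoter carried a mark when this held in both samples of that mark. It was in the H3K4me3 alone class when both H3K4me3 samples and no H3K9me3 sample carried it, and in the H3K9me3 alone class in the opposite case. Promoters carried in all 4 samples formed the both class and those carried in no sample the neither class. All others, in which the samples of one mark disagreed, were left undecided. Of 19111 promoters on chromosomes 1 to 22, 2151 (11.3%) were H3K4me3 alone, 140 (0.733%) H3K9me3 alone, 7 (0.0366%) both and 8435 (44.1%) neither, and 8378 (43.8%) were undecided. The H3K4me3 alone class rests on the smaller H3K4me3 list. It held 10042 promoters when the library labelled All gRNA replicate 2 was left out. With the samples labelled No gRNA it held 1675, of which 622 were among the 2151. The H3K9me3 alone class held 457 without H3K9me3 No gRNA replicate 1, and 139 with the H3K4me3 samples labelled No gRNA, all of them among the 140.

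One promoter is printed for each class to show the kind of sequence in which the mark lay, with 2 additional zinc finger promoters because that family is frequent in the H3K9me3 classes. Each run holds the 250 bases before the RefSeq start (GRCh38.p14), 5′ to 3′ on the gene's strand, with CG dinucleotides in capitals. The H3K4me3 alone example is ZFP36L1, a gene for an mRNA decay factor (chr14:68796244-68796493, minus strand), with 8 CG. The H3K9me3 alone examples are TAF11L5, one of a tandem family on chromosome 5 (chr5:17524985-17525234, plus strand), with 10 CG, and the zinc finger gene ZNF578 (chr19:52453303-52453552, plus strand), with 16 CG. The examples with both marks are ZNF566 (chr19:36489562-36489811, minus strand), with 21 CG, and ZNF329 (chr19:58150790-58151039, minus strand), with 20 CG. The neither example is ACTA1, the skeletal muscle actin gene (chr1:229434095-229434344, minus strand), with 22 CG. In all 6, the printed bases were covered at 100% or 0% in each library as the class of the promoter says. The RefSeq start lay 4321 bases from the GENCODE start for ZNF329, 341 bases for ZNF566 and at most 10 bases for the others. ZNF578 and ZNF566 were added after their values were seen.
ZFP36L1: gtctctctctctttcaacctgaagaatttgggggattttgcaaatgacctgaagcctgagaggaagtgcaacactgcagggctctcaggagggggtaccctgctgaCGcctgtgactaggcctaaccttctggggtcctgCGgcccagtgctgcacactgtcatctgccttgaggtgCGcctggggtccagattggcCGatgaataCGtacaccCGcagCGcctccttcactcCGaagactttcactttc
TAF11L5: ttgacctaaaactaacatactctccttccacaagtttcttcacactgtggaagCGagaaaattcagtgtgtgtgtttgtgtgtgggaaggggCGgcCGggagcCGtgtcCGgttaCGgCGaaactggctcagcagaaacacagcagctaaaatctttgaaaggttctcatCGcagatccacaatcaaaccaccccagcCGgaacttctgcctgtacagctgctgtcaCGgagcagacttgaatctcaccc
ZNF578: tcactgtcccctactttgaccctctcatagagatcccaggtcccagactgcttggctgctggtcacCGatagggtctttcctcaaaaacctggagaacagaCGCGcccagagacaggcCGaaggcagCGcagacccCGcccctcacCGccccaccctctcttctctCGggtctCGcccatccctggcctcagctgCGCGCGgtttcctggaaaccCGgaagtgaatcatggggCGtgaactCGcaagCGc
ZNF566: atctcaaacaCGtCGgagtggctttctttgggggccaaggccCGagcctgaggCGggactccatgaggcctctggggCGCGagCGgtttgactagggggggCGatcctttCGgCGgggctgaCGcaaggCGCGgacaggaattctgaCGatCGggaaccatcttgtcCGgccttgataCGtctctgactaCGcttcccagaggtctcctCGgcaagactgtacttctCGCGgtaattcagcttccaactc
ZNF329: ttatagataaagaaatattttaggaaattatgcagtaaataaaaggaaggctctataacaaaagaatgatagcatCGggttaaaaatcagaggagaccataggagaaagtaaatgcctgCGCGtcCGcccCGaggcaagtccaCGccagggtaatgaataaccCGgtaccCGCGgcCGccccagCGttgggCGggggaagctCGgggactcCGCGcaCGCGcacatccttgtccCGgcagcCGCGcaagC
ACTA1: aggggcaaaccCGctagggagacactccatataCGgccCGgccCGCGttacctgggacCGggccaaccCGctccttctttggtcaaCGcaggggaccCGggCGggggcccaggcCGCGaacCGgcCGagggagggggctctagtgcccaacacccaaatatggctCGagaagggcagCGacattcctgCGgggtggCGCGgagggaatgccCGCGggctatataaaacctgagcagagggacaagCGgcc

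CG dinucleotides thus stood before the start in each class, and the ACTA1 run, without either mark, held the most of the 6. Over whole classes the density of CG dinucleotides differed. The ratio of observed to expected CG (1 means as many as the base composition would give) over the start ± 1 kb had a median of 0.69 in the 2151 H3K4me3 alone promoters, with quartiles of 0.60 and 0.77. It was 0.53 (0.36 and 0.62) in the 140 H3K9me3 alone promoters, 0.67 (0.64 and 0.80) in the 7 with both marks and 0.33 (0.21 and 0.62) in those with neither. A ratio of at least 0.6 was reached by 75.3% of the H3K4me3 alone promoters, 30.0% of the H3K9me3 alone promoters and 27.4% of those with neither, against 52.8% of all promoters. The H3K9me3 alone class thus lay between the H3K4me3 alone and the neither class in its median. Of the 19111 genes, 14616 matched a RefSeq promoter, and the 250 bases before the start held a median of 20 CG in H3K4me3 alone, 10 in H3K9me3 alone, 20 in both and 8 in neither. At least 1 CG was present in 96.9% of all matched promoters of that length. Promoters are not replicates, and these values describe the classes without a test.

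The libraries differed strongly in yield within each mark. At q ≤ 0.05 on chromosomes 1 to 22, H3K9me3 No gRNA replicate 1 held 9473 peaks over 92.5 Mb and replicate 2 held 31625 peaks over 216 Mb. The H3K4me3 library labelled All gRNA replicate 2 held 3048 peaks over 19.2 Mb, and No gRNA replicate 2 held 13622 peaks over 113 Mb. The smaller list was largely contained in the larger one. For H3K9me3, 92.5% of the bases of replicate 1 were also covered in replicate 2, and 39.7% of those of replicate 2 in replicate 1. For H3K4me3, 84.8% of the bases of the library labelled All gRNA replicate 2 were covered in No gRNA replicate 2, and 14.4% in the other direction. Between marks, at most 3.44% of the bases of any list were covered in a list of the other mark. The lists were distinct, and the most intervals that any pair had in common base for base was 437. Since no read counts were given, depth is unknown, and its part in these yields was not tested.

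Each mark had its own geography. Promoters made up 19.3% and 15.3% of the covered bases in the H3K4me3 libraries (labelled All gRNA replicate 2 and No gRNA replicate 2) and 0.391% and 0.500% in the H3K9me3 libraries (replicate 1 and 2). Relative to an even spread of peaks over the genome, this was an enrichment of 13.6-fold ± 2.22 (SD, n = 2) for H3K4me3 and a depletion to 0.351-fold ± 0.0606 (SD, n = 2) for H3K9me3. The difference of 13.2 was larger than the pooled SD of 1.57, and the groups did not overlap (exact two-sided permutation test, p = 0.33, which is the lowest p that 2 against 2 samples can give). The mark was carried by 11.7% and 53.1% of promoters in the H3K4me3 libraries and by 0.994% and 2.97% in the H3K9me3 libraries. The means were 32.4% ± 29.3 (SD, n = 2) and 1.98% ± 1.40 (SD, n = 2), a difference of 30.4 percentage points against a pooled SD of 20.8 (exact permutation test, p = 0.33). It was 51.2 points without the library labelled All gRNA replicate 2, 9.68 points without H3K4me3 No gRNA replicate 2, 18.3 points at q ≤ 0.01 and 10.7 points with the libraries of a mark cut to equal covered length. Peaks of H3K4me3 were also wider, with medians of 4818.5 and 5998 bases against 1744 and 1961 bases for H3K9me3, although the longest H3K9me3 peaks, at 829960 and 944544 bases, exceeded the longest H3K4me3 peaks of 192961 and 299537 bases. The genome covered was 154 Mb ± 87.1 (SD, n = 2) for H3K9me3 and 66.3 Mb ± 66.6 (SD, n = 2) for H3K4me3. That difference of 87.8 Mb was close to the pooled SD of 77.5 Mb, the groups overlapped (exact permutation test, p = 0.67), and with all deposited peaks the difference turned to -119.8 Mb.

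**Figure D1:**
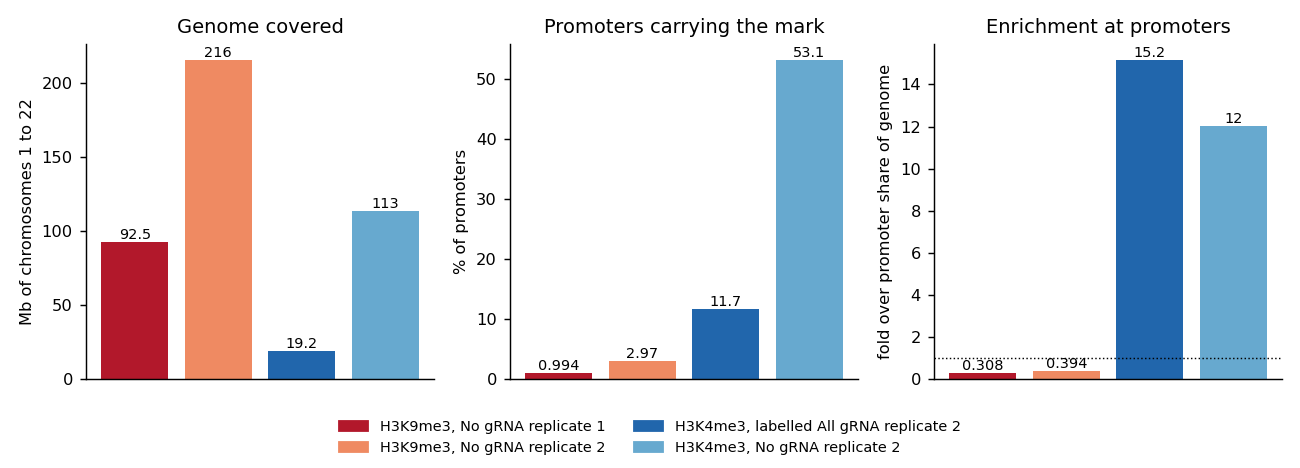
Bars give, for each of the 4 libraries, the Mb of chromosomes 1 to 22 in peaks at q ≤ 0.05, the percent of 19111 promoters carrying the mark, and the fold enrichment of covered bases at promoters, where the dotted line marks 1. Both H3K4me3 libraries stand above both H3K9me3 libraries in the promoter panels (11.7% and 53.1% against 0.994% and 2.97%), while the covered length overlaps between marks.

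H3K4me3 was centred on start sites and H3K9me3 was not. Averaged over all 19111 genes, the share of bases in H3K4me3 peaks in the 500 bases after the start was 11.8% (labelled All gRNA replicate 2) and 53.3% (No gRNA replicate 2). It was 1.60% and 11.5% at the bin centred 19.75 kb upstream. H3K9me3 covered 1.02% and 3.13% in the same 500 bases and 1.04% and 3.29% at the upstream bin, and over all genes it stayed between 0.988% and 1.19% in replicate 1 and between 2.72% and 3.39% in replicate 2 across the bins. The zinc finger genes of chromosome 19 (251 genes named ZNF or ZFP) combined both pictures. H3K9me3 covered 35.6% and 57.7% of the bases just after their starts and 39.2% and 58.9% at 19.75 kb upstream, and H3K4me3 rose to 13.6% and 59.0% at the start. Olfactory receptor genes, which are expressed in nasal sensory neurons, had little H3K4me3, with 0.24% and 0.72% after the start. H3K9me3 was at 2.42% and 6.91% there, above the 1.02% and 3.13% of all genes.

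By a gap of 25 percentage points, in which the lowest sample of one mark lies above the highest of the other, 2185 of 19111 promoters (11.4%) were higher in H3K4me3 and 147 (0.769%) were higher in H3K9me3. The 8 with the largest H3K4me3 gap were ZFP36L1, MAP3K1 (a kinase upstream of JNK signalling), BIRC3 (an inhibitor of apoptosis in NF-kappaB signalling), ZNF780A, IL27RA (a cytokine receptor chain), ANTXR1 (a collagen-binding receptor), RICTOR (the defining subunit of mTORC2) and SMIM14. Each was covered at 100% in both H3K4me3 libraries and at 0% in both H3K9me3 libraries, so the groups did not overlap. Other promoters, such as that of KMT2A, had the same gap, and peak height decided which 8 are named and in what order. The highest peak in the ZFP36L1 window was enriched 4.21-fold and 4.77-fold over the background of the peak caller in the libraries labelled All gRNA replicate 2 and No gRNA replicate 2, and that of MAP3K1 3.91-fold and 4.86-fold. The 8 with the largest H3K9me3 gap were TAF11L5 to TAF11L10, ZNF595 on chromosome 4 and IRX1, a homeobox gene of chromosome 5. Other promoters, such as those of ZNF728 and ZNF730, had the same gap, and peak height again decided which are named. All 8 were at 100% in both H3K9me3 libraries and 0% in both H3K4me3 libraries. Their highest peaks were lower than those of H3K4me3, at 2.38-fold and 2.56-fold for TAF11L5, 2.35-fold and 2.46-fold for ZNF595 and 2.35-fold and 2.47-fold for IRX1. The TAF11L genes are near-identical neighbours within the same peaks, so their reads may be shared between copies and they are uncertain as separate genes.

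ZEB1, the transcription factor whose promoter the guides of the series target (chromosome 10, 31318495 to 31529814, plus strand, ENSG00000148516.23), was covered by H3K4me3 at 100% in both libraries and by H3K9me3 at 0% in both. The library labelled All gRNA replicate 2 was thus at 100% at this promoter. Both H3K4me3 libraries outside the map were at 0% there, the conflicting library labelled No gRNA replicate 1 among them. Of the H3K9me3 libraries outside the map, All gRNA replicate 1 was at 0% and All gRNA replicate 2 at 69.2%. With all deposited peaks these H3K9me3 values were 65.5% and 69.2%, so the 0% came from the q threshold, while both No gRNA H3K9me3 libraries were at 0% with all peaks too.

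The mesenchymal and epithelial lists were used to set the label of the cell line against the data. Of 18 mesenchymal genes, 6 (33.3%, against 11.3% of all promoters) were H3K4me3 alone, namely ZEB1, ZEB2, SNAI2, TWIST2 and FOXC2, which encode transcription factors of the mesenchymal state, and SPARC, which encodes a matrix glycoprotein. ZEB2, SNAI2, TWIST2 and FOXC2 were at 100% in both H3K4me3 libraries, and SPARC was at 66.8% and 100%. VIM, FN1, CDH2 and COL1A1 were at 0% in one H3K4me3 library (labelled All gRNA replicate 2) and at 100% in No gRNA replicate 2, and so were undecided. COL1A2, COL3A1, S100A4 and THY1 were neither, which was 4 of the 18 (22.2%, against 44.1% of all promoters). Of 22 epithelial genes, 4 (18.2%) were H3K4me3 alone: the keratins KRT8 and KRT18 and the lipid enzyme gene CDS1 at 100% in both libraries, and the desmosomal DSP at 74.8% and 84.2%. KRT8 and KRT18 start at 52949954 and 52948871 on chromosome 12, so their windows overlap and are not separate cases. No peak at this threshold reached the promoters of CDH1 (E-cadherin), EPCAM, ESRP1, GRHL2, OVOL1, OVOL2, CLDN3, CLDN4 and CLDN7 in any of the 4 libraries, and 16 of the 22 were neither. The broadly expressed POLR2A and TUBB were also at 0% in all 4, so a share of 0% does not show that a mark was absent. In No gRNA replicate 2 alone, 14 of 18 mesenchymal and 6 of 22 epithelial promoters carried H3K4me3, against 53.1% of all promoters. With the H3K4me3 samples labelled No gRNA, 4 mesenchymal and 2 epithelial promoters were H3K4me3 alone, against 1675 of all 19111 promoters. H3K9me3 was carried by 0 genes of either list in either library, and the highest share of any of the 40 was 5.70%, at PRRX1 in replicate 2. Of 22 genes specific to other lineages, such as ALB, GFAP, MYH7 and INS, all were neither, against 44.1% of all promoters.

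Across 5 lists of ribosomal protein, proteasome, replication histone and housekeeping genes, the share of H3K4me3 alone promoters ran from 10.5% to 37.7%, against 11.3% of all promoters. Of 77 cytosolic ribosomal protein genes, 29 (37.7%) were H3K4me3 alone, and 71 carried H3K4me3 in No gRNA replicate 2, against 53.1% of all promoters. With the H3K4me3 samples labelled No gRNA, 30 were H3K4me3 alone, against 1675 of all 19111 promoters. Examples at 100% in both libraries were RPS27A, RPS3A, RPL23A and RPS10. Mitochondrial ribosomal protein genes had 16 of 78 (20.5%), with MRPS5, MRPL24, MRPL32 and MRPL40 at 100% in both, and proteasome subunit genes 4 of 38 (10.5%), namely PSMA2, PSMA5, PSMB2 and PSMC6. PSMA2 and MRPL32 start at 42932185 and 42932376 on chromosome 7, so their windows overlap and are not separate cases. Replication histone genes, the clustered genes that package newly made DNA, had 12 of 68 (17.6%), including H2BC6, H2AC19, H3C15 and H4C15. Of 14 housekeeping genes, 3 (21.4%) were H3K4me3 alone, ACTB and SDHA among them, and 11 carried the mark in No gRNA replicate 2. H3K9me3 in both samples was carried by 0 promoters of these 5 lists, although 3 histone promoters and 1 mitochondrial ribosomal protein promoter carried it in replicate 2.

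HOX genes, which specify position along the body axis, were H3K4me3 alone at 7 of 39 promoters (17.9%, against 11.3% of all promoters). There were 20 without the library labelled All gRNA replicate 2, against 10042 of all 19111 promoters. With the samples labelled No gRNA there were 5, against 1675 of all 19111. Among the 7 were HOXC4, HOXC5, HOXC6, HOXC8, HOXC9 and HOXC10, each at 100% in both libraries and next to each other on chromosome 12. HOXC4, HOXC5 and HOXC10 had highest peaks of the same height, 2.78-fold and 3.73-fold, so these neighbours may not be separate cases. None of the 39 carried H3K9me3 in either library. Genes of the methylation machinery were mostly undecided, since No gRNA replicate 2 carried H3K4me3 at 12 of 15 writers and readers of H3K9 methylation and 14 of 15 writers and erasers of H3K4 methylation (53.1% of all promoters), while the library labelled All gRNA replicate 2 carried it at 2 and 3. CBX5, which encodes HP1 alpha, and MPHOSPH8, a subunit of the HUSH complex, were H3K4me3 alone at 100% and 100%, and at 78.6% and 84.5%. KMT2A and KDM1A were at 100% in both, and KMT2C at 57.4% and 100%.

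Of the 140 H3K9me3 alone promoters, 60 belonged to zinc finger genes of chromosome 19 and 10 to zinc finger genes of other chromosomes. Of the 251 zinc finger promoters of chromosome 19, 60 (23.9%) were H3K9me3 alone against 0.733% of all promoters, and they were 42.9% of that class. A further 21 (8.37%) were H3K4me3 alone, 4 (1.59%) both and 21 (8.37%) neither. H3K9me3 was carried by 91 of them in replicate 1 and 148 in replicate 2, and H3K4me3 by 34 (labelled All gRNA replicate 2) and 148 (No gRNA replicate 2). ZNF728 (22974883 to 23003176, minus strand), ZNF730, ZNF578 and ZNF420 were at 100% in both H3K9me3 libraries and 0% in both H3K4me3 libraries. ZNF780A, ZNF575, ZNF234 and ZNF564, on the same chromosome, showed the opposite, at 0% for H3K9me3 and 100% for H3K4me3 in both libraries. Of 264 zinc finger promoters on other chromosomes, 10 (3.79%) were H3K9me3 alone, 39 (14.8%) H3K4me3 alone and 3 (1.14%) both, with ZNF595, ZNF727, ZNF479 and ZNF268 at the top of the H3K9me3 order and ZNF131, ZNF462, ZNF622 and ZNF202 at that of H3K4me3. Without the library labelled All gRNA replicate 2, the chromosome 19 counts were 78 H3K4me3 alone, 60 H3K9me3 alone and 27 both, and without H3K9me3 No gRNA replicate 1 they were 21, 82 and 13. With the H3K4me3 samples labelled No gRNA they were 12, 60 and 2. With all deposited peaks they were 60, 31 and 94. In the same order of settings, these classes over all 19111 promoters held 10042, 140 and 41, and 2151, 457 and 20. By label they held 1675, 139 and 3, and with all deposited peaks 11867, 436 and 324.

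In the lists of olfactory receptors, protocadherins, keratin-associated proteins, cornified envelope genes and bitter taste receptors, 0% to 5.66% of promoters were H3K9me3 alone. Tandem families outside the lists are given under the other observations, and TAF11L genes had 11 of 13 promoters in the class. Olfactory receptors were neither at 388 of 414 promoters (93.7%), and 4 (0.966%) were H3K9me3 alone, near the 0.733% of all promoters. Without H3K9me3 No gRNA replicate 1 there were 21, against 457 of all 19111 promoters. In single libraries, H3K9me3 was carried by 6 of the 414 in replicate 1, against 0.994% of all promoters. In replicate 2 it was carried by 21, against 2.97%. The 4 were OR4C46 at 100% and 100%, OR5M10 at 92.4% and 91.2%, OR4C15 at 90.9% and 91.9% and OR4A16 at 100% and 60.4%, all on chromosome 11. OR52N2, also on chromosome 11, was the one H3K4me3 alone receptor, at 76.4% and 98.0%. Clustered protocadherins, which give neurons a surface identity, had 3 H3K9me3 alone promoters of 53 (5.66%), namely PCDHA1, PCDHA4 and PCDHA8. H3K9me3 was carried by 35 of the 53 in replicate 2, against 2.97% of all promoters, and by 3 in replicate 1, against 0.994%. H3K4me3 was carried by 3 in No gRNA replicate 2, against 53.1% of all promoters, and by 0 in the library labelled All gRNA replicate 2, against 11.7%. With the libraries of each mark unlike in this way, 34 were undecided. Keratin-associated proteins of hair had 3 of 94 (3.19%), KRTAP13-2, KRTAP13-4 and KRTAP7-1, with 19 in replicate 2. Cornified envelope genes (30) and bitter taste receptors (24) had 0 promoters with either mark in both samples, and 29 and 24 were neither.

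The promoters with both marks were all zinc finger genes. They were ZNF329 (58126248 to 58155110, minus strand), ZNF566 (36445119 to 36489902, minus), ZNF550 (57535257 to 57559863, minus) and ZNF850 (36714383 to 36772825, minus) on chromosome 19, ZNF107 on chromosome 7 (64666099 to 64711577, plus) and ZNF891 (133104779 to 133130274, minus) and ZNF10 (133130575 to 133159465, plus) on chromosome 12. ZNF891 and ZNF10 start 301 bases apart on opposite strands, so their windows overlap and are not separate cases. In ZNF329 and ZNF566, all 4 libraries covered 100% of the window. ZNF550 was at 100% and 100% for H3K9me3 and 100% and 94.6% for H3K4me3. ZNF850 was at 87.7% and 87.1% for H3K9me3 and 89.0% and 91.6% for H3K4me3. ZNF107 was at 100% and 84.0% for H3K9me3, and ZNF10 at 68.0% and 100%. The 2 peaks were of unlike height in ZNF566, where the H3K9me3 peaks were enriched 2.18-fold and 2.13-fold and the H3K4me3 peaks 3.33-fold and 3.30-fold.

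The 7 promoters with both marks were 3.87% of the 181 with H3K9me3 in both samples and 0.322% of the 2171 with H3K4me3 in both. Counting a promoter once any sample of each mark carried it gave 115, or 19.9% of 577 and 1.13% of 10214. Without the library labelled All gRNA replicate 2 there were 41 promoters with both marks, and without H3K9me3 No gRNA replicate 1 there were 20. With the H3K4me3 samples that are labelled No gRNA there were 3, of which 1 was among the 7. The call was also sensitive to the threshold, with 0 promoters at q ≤ 0.01 and 324 with all deposited peaks. In chromatin from many cells, both marks on one allele, on different alleles and in different cells cannot be told apart. In the other 4 libraries, ZNF329, ZNF550 and ZNF850 were at 100% for H3K9me3 in both All gRNA samples, whereas ZNF107 was at 0% in both.

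Over gene bodies, taken from 2 kb after the start to the gene end, H3K9me3 in both samples was found in 174 of 17067 genes (1.02%). Of these 174, 131 were ZNF or ZFP genes and 126 (72.4%) lay on chromosome 19, which holds 7.72% of all promoters. Among 248 chromosome 19 zinc finger genes with a body long enough, the median share in H3K9me3 peaks was 20.1% in replicate 1 and 88.2% in replicate 2, and 106 and 174 bodies were covered at 50% or more. In 1075 other genes of the chromosome the median was 0% in both libraries, with 22 and 62 bodies covered. The promoters of the 174 genes were H3K9me3 alone in 84 cases, undecided in 71, H3K4me3 alone in 8, neither in 7 and both in 4.

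A body with H3K9me3 behind a promoter with H3K4me3 was found in 13 genes (0.0762% of 17067), 10 of them on chromosome 19 and 10 named ZNF or ZFP. ZNF329, ZNF564 (12525373 to 12551542, minus strand) and ZNF700 (11925068 to 11950773, plus) had bodies at 100% in both H3K9me3 libraries and promoters at 100% in both H3K4me3 libraries. The promoter of ZNF564 had 0% H3K9me3 in both, and that of ZNF700 9.15% and 39.8%. ZNF121 and ZFP69B (chromosome 1) followed, with bodies at 100% and 100%, and 100% and 92.8%. ZNF891, ZNF850 and ZNF550 belonged to the group with both marks at the promoter. RBAK on chromosome 7, which encodes a zinc finger repressor that binds RB1, had a body at 65.1% and 66.5% and a promoter at 0% for H3K9me3. ENSG00000267179 begins 7 bases from ZNF700 and ENSG00000196826 begins 68 bases from ZNF564, so both repeat a start already counted. ZNF383 and ZNF823 completed the 13, with bodies at 54.1% and 96.4%, and 50.4% and 91.7%. In the 2 All gRNA H3K9me3 libraries, 12 of the 13 bodies were covered at 92.4% to 100% in both, the exception being RBAK at 95.3% and 41.3%.

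Downstream of the starts of these 13 genes both marks covered the same bins for several kb. H3K4me3 covered 100% of the first 500 bases after the start in both libraries, 38.5% and 84.6% at the bin centred 4.75 kb downstream and 0% and 7.69% at 10.25 kb. H3K9me3 went from 30.8% and 49.9% after the start to 76.9% and 77.8% in the bin at 2.25 kb, 76.9% and 92.3% at 4.75 kb and 92.3% and 100% at 10.25 kb. The choice of the genes by promoter and body fixes in part both the H3K4me3 at the start and the H3K9me3 downstream. On the upstream side, which did not enter the choice beyond 1 kb, H3K9me3 stood at 23.1% and 61.5% in the bin at -10.25 kb. ZNF564, ZNF700, ZNF121 and ZNF823 are also among the 21 chromosome 19 zinc finger genes with H3K4me3 alone, so that set is not free of the choice by body. In these 21, H3K9me3 was 0% and 24.5% at -10.25 kb and 19.0% and 43.1% at 10.25 kb, higher downstream than upstream in both libraries. In the 60 with H3K9me3 alone it was 87.0% and 94.1% upstream and 88.1% and 97.9% downstream. Without the library labelled All gRNA replicate 2, 71 genes had an H3K9me3 body and an H3K4me3 promoter, and without H3K9me3 No gRNA replicate 1 there were 41. With the H3K4me3 samples labelled No gRNA there were 7, of which 2 were among the 13.

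Along the genome, 2755591 windows of 1 kb without gaps in the assembly were classed in the same way. H3K9me3 alone was found in 84211 (3.06%), H3K4me3 alone in 15757 (0.572%), both in 301 (0.0109%) and neither in 2421468 (87.9%). The remaining windows, in which the samples of a mark disagreed, were undecided and do not enter the class values below. Windows with H3K4me3 alone lay close to genes, with a median of 3.01 kb to the nearest protein-coding start, and 73.7% were within 10 kb. Windows with H3K9me3 alone lay a median of 959 kb away, and 3.15% were within 10 kb, against 89.9 kb and 11.3% for all windows. Windows in repeats were not set apart in these values. Protein-coding genes overlapped 13.5% of the H3K9me3 alone windows and 75.9% of the H3K4me3 alone windows, against 45.8% of all. Most windows with H3K9me3 alone were thus outside protein-coding genes, and the promoter classes are a small part of the H3K9me3 map. Chromosome 19 held 12.7% of the H3K9me3 alone windows and 2.12% of all windows.

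H3K9me3 was spread unevenly over the chromosomes. Chromosome 19 was covered at 19.6% in H3K9me3 replicate 1 and 30.2% in replicate 2, the highest of the 22 in both. Chromosomes 22, 21 and 20 came next in replicate 1, at 12.4%, 11.97% and 8.64%, and in replicate 2 they were at 18.2%, 19.0% and 19.2%, beside 19.8% for chromosome 16. Chromosome 17, also gene-rich, was at 0.755% and 3.86%, the lowest in replicate 1. For H3K4me3 the range was 0.259% to 1.57% (labelled All gRNA replicate 2) and 2.08% to 12.9% (No gRNA replicate 2), with chromosomes 18 and 13 at the low ends and chromosomes 22 and 19 at the high ends. At promoters, chromosome 19 had 77 of the 140 H3K9me3 alone calls (55.0%) and 4.04% of the H3K4me3 alone calls. Chromosome 5 followed with 19, among them the TAF11L genes and IRX1, and chromosomes 1, 6, 10 and 18 had 0.

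Runs of neighbouring windows gave the longest domains. H3K9me3 formed 6124 runs with a median of 5 kb, and the longest, 685 kb on chromosome 9 (43808001 to 44493000) and 600 kb on chromosome 18 (17251001 to 17851000), contained 0 protein-coding genes. The genome used has no repeat masking, and whether reads can be placed uniquely in these gene-free runs was not tested. The longest with protein-coding genes, 314 kb on chromosome 19 (57964001 to 58278000), held 9 of them, including ZNF606, ZNF135, ZNF329, ZNF274 and ZNF544 and the related ZSCAN1 and ZSCAN18. It was covered at 99.9% and 100% by H3K9me3 and at 3.58% and 11.3% by H3K4me3, and at 99.9% and 100% in the All gRNA H3K9me3 libraries. H3K4me3 formed 2611 runs, also with a median of 5 kb, and among the longest that held protein-coding genes were 66 kb at BCL2L1, an inhibitor of apoptosis, on chromosome 20 (31659001 to 31725000) and 65 kb at MYH9, non-muscle myosin, on chromosome 22 (36323001 to 36388000). H3K9me3 covered 0% of both runs in both libraries. The longest H3K4me3 runs of all, 193 kb (127887001 to 128080000) and 105 kb (127781001 to 127886000), lay close together on chromosome 8. They held 0 protein-coding genes.

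Regions with both marks were short and few, with 79 runs and a median of 2 kb. The longest, 37 kb on chromosome 1 (228609001 to 228646000), holds 16 genes for 5S ribosomal RNA, a tandem array, and the next, 31 kb on the same chromosome (161441001 to 161472000), holds 1 long non-coding RNA gene. Both were covered at 100% in all 4 libraries. In the 5S array the other H3K9me3 libraries were also at 100%, and the other H3K4me3 libraries were at 100% (labelled All gRNA replicate 1) and 0% (labelled No gRNA replicate 1). Arrays of near-identical copies share reads between copies, and the values there belong to the array and not to a single copy. The next in length were 19 kb (4016001 to 4035000) and 11 kb (2688001 to 2699000) on chromosome 5. They lay 420 kb from the start of IRX1 and 52.7 kb from that of IRX2. A run of 10 kb on chromosome 8 (127393001 to 127403000) followed and overlaps the gene POU5F1B. By number of windows with both marks, chromosome 8 came first with 112 of the 301. Chromosome 1 had 68, chromosome 5 had 59 and chromosome 19 had 34. Why such windows gathered on chromosome 8 was not tested. Without the library labelled All gRNA replicate 2, the windows with both marks numbered 799, without H3K9me3 No gRNA replicate 1 they numbered 501, and with the H3K4me3 samples labelled No gRNA 234.

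The 4 libraries outside the map gave values that it had not used. Of the 140 H3K9me3 alone promoters, 135 (96.4%) and 130 (92.9%) carried H3K9me3 in All gRNA replicate 1 and replicate 2, and 0.714% carried H3K4me3 in each of the other H3K4me3 libraries. Of the 2151 H3K4me3 alone promoters, 1834 (85.3%) carried H3K4me3 in the additional library labelled All gRNA replicate 1, and 622 (28.9%) in that labelled No gRNA replicate 1, while 0.325% and 0.372% carried H3K9me3. Among the 8435 with neither mark, between 0.711% and 2.83% carried the mark of the library in question. The H3K9me3 calls at promoters thus recurred in both additional libraries, and the H3K4me3 calls recurred to unequal degrees. Of the 7 with both marks, 6 and 5 carried H3K9me3 and 4 and 1 carried H3K4me3 there. The last of these, 1 of 7 (14.3%), was close to the 9.38% of all promoters.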

How the data were processed

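Native ChIP-seq of H3K9me3 (antibody ab8898) and H3K4me3 (ab8580) was analysed from broad peak lists on hg38, 1 per sample. According to the methods, the authors trimmed reads with fastp, aligned them with bowtie2, removed duplicates and reads in an exclusion list, and called peaks per sample with MACS2. The processing notes of the submitters instead name bcl2fastq 2.17, Trimmomatic 0.33, Bowtie 1.1.2 and MACS2 2.1.0. Input chromatin was set aside and subtracted in signal tracks, which were not used here; its use in peak calling is not given in the sources used here. For each deposited peak the authors' caller wrote a score (whole numbers), the fold enrichment as a ratio, and p-value and q-value on a −log10 scale. The lists hold no counts, so depth and counting error are unknown, and a shallow library yields fewer peaks at a fixed q.

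Here peaks at q ≤ 0.05 on chromosomes 1 to 22 were merged per sample, and the covered share was computed for 19111 start sites ± 1 kb (GENCODE release 44, 1 start per gene), 17067 gene bodies and 1 kb windows, using Python 3.11.15, numpy 2.4.6, pandas 2.3.3 and scipy 1.17.1. Functions were tested on simulated intervals. Samples were grouped by label, the 4 members chosen by file name. Means were compared by exact permutation tests over 6 labellings. Labels call the samples biological replicates, and no culture or batch is named. Genes in the text are ZEB1, up to 4 (or all, if 5 or fewer) per gene list and class by gap, the 8 largest gaps per direction, up to 12 promoters with both marks and 10 bodies by lowest share, the 5 longest runs, and members of lists of up to 22 genes and HOX genes given with their class. Others were chosen after their values were seen, and some genes that the rule selects are not reported here. Members, thresholds and the 18 gene lists were chosen with earlier results of these data known. The repeat share of promoters was not computed, since the genome used has no repeat masking. Alternatives varied the q threshold, share, window, gap, covered length and samples.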

Additional observations from a re-analysis of the deposited data

Results flagged for a closer look

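Peaks outside chromosomes 1 to 22 entered no comparison, and in all 4 libraries they were a sizeable part of the lists at q ≤ 0.05. Their share was 77.8% in H3K9me3 No gRNA replicate 1 and 56.4% in H3K9me3 No gRNA replicate 2. It was 20.6% in the H3K4me3 library labelled All gRNA replicate 2 and 8.44% in H3K4me3 No gRNA replicate 2. Most of them lay on entries of the alignment index other than the numbered and sex chromosomes, which took 75.2% and 50.05% of the H3K9me3 peaks and 20.1% and 6.69% of the H3K4me3 peaks. These were narrow, with median widths between 439 and 525 bases. Chromosome X took between 0.495% and 6.21% of the peaks.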

How the results depend on the processing

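The q threshold decided the size of the map. With all deposited peaks, 12922 promoters were called higher in H3K4me3 and 576 in H3K9me3, 11867 were H3K4me3 alone, 436 H3K9me3 alone and 324 both, 358 bodies had H3K9me3 behind an H3K4me3 promoter, 45601 windows had both marks, the promoter difference was 64.8 points, the enrichment difference 2.04, and the covered genome reversed to -119.8 Mb. At q ≤ 0.01 the counts were 296, 17, 290, 16 and 0, with 1 body and 119 windows. At q ≤ 0.001 they were 21, 12, 21, 12 and 0, with 0 bodies, 59 windows, 7.81 points and an enrichment difference of 9.54. With the libraries within each mark trimmed to the same covered length (the marks still differed), 1118 promoters were called higher in H3K4me3, 1101 were H3K4me3 alone, 1 had both marks, 2 bodies and 184 windows remained in count, and the enrichment difference was 15.1. A share of 25% gave 20 bodies and one of 75% gave 8. With H3K4me3 samples by label, 3 promoters had both marks, there were 7 bodies, the enrichment difference was 8.29, and 1675 promoters were H3K4me3 alone, of which 622 were among the 2151. The causes were not tested.

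Leaving out 1 library at a time gave 2185 to 10160 promoters higher in H3K4me3, 147 to 519 higher in H3K9me3, 2151 to 10042 H3K4me3 alone, 140 to 457 H3K9me3 alone, 7 to 41 both, 13 to 71 bodies, 339 to 799 windows, 26.2 to 149 Mb and 9.68 to 51.2 points. The H3K4me3 maxima (and those of both marks, bodies and windows) came without the library labelled All gRNA replicate 2, and the H3K9me3 maxima without H3K9me3 No gRNA replicate 1. Both H3K4me3 members are labelled with the number 2, so by label only the samples labelled No gRNA could be paired with H3K9me3. With the replicate block, 1711 and 146 promoters were called, as without it. The file names number the members 1 and 2, and a replicate block on those numbers, added after seeing the data, called 2186 and 147. For 89 named promoters, 1068 gaps were recomputed, of which 195 fell under the threshold, none came above it, and 1 reversed (the gap of ZNF850, from 1.35 to -6.17 points with a window of ± 2 kb). Depth is unknown, so an absent peak cannot be read as an absent mark.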

Other observations

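Outside the gene lists, the 140 H3K9me3 alone promoters held several multi-copy families, which were picked out after the symbols were seen. The TAF11L genes of chromosome 5 had 11 of 13 promoters in the class and USP17L deubiquitinase genes 5 of 26, POTE genes 2 of 13 and vomeronasal receptors 2 of 4, against 0.733% of all promoters. With the ZSCAN genes added, zinc finger symbols (ZNF, ZFP and ZSCAN) made up 73 of the 140, or 52.1%. TAF11L, USP17L and POTE copies are near-identical, so values of single copies are uncertain.

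Among 28 imprinted genes (a list written after the values were seen), 4 were H3K9me3 alone, 0 were H3K4me3 alone or both, 12 were neither and 12 undecided. Over all promoters these shares were 0.733% H3K9me3 alone, 11.3% H3K4me3 alone, 44.1% neither and 43.8% undecided. The 4 were PEG3 and ZIM2, which share a start region on chromosome 19, and SNRPN and NPAP1 in the Prader-Willi region of chromosome 15. PEG3, ZIM2 and NPAP1 were at 100% in both H3K9me3 libraries, SNRPN was at 64.2% and 100%, and H3K4me3 was at 0% for each. Single-copy genes chosen in the same way included TIMP3, an inhibitor of matrix metalloproteinases, at 100% and 100%, the neuronal factor gene MYT1L at 94.0% and 94.0%, and CDH11, the mesenchymal cadherin, at 69.4% and 67.5%. Only 1 start per gene was used. The windows of SNRPN and CDH11 lay at 24823637 and 65126112, with ratios of observed to expected CG of 0.29 and 0.15. Any other start of these genes, including an imprinted one, was not measured.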
